A study of Homo sapiens with 6 samples.

Results

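The BET proteins, the kinase complex that releases paused RNA polymerase II, Mediator and the acetyltransferase coactivators read or build active enhancers, and the 9 genes considered here encode such factors and the transcription factor MYC. They are *BRD2*, *BRD3*, *CDK9*, *CCNT1*, *HEXIM1*, *MED1*, *EP300*, *CREBBP* and *MYC*, read as the rows of the deposited table that carry these gene names. They were chosen by name, for their roles and with earlier results of these data known. All 9 were found among the 62703 genes of the table, and all 9 passed the filter on low counts and were among the 15179 genes tested.

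The samples were PANC-1 cells, an established human pancreatic ductal cancer line grown in culture. The study removed the component enhancer e1 of DKK1-SE, a super-enhancer whose target it names as *DKK1*, with CRISPR/Cas9, to ask what that element does in these cells. RNA was sequenced from 3 biological replicates with DKK1-SE intact on both alleles (WT) and 3 biological replicates of cells with a homozygous deletion of e1 (DKK1-SE-KO). As the study describes them, the deleted cells came from a single clone, so a difference between the groups and a difference between that clone and other cells of the line cannot be told apart. Expected counts summed to 21822314, 16475810 and 18803154 in the WT libraries and to 17359835, 20098086 and 17804764 in the DKK1-SE-KO libraries.

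The gene that the study names as the target of the deleted enhancer was read first as a check of the labels. *DKK1*, which encodes a secreted inhibitor of Wnt signalling, was at 229, 246 and 199 TPM (a level corrected for transcript length and scaled to a sum of 1000000 in each library) in the WT samples and at 66.8, 79.8 and 82.7 TPM in the DKK1-SE-KO samples. With a log2 fold change of -1.45 ± 0.11 (SE, edgeR adjusted p = 6.2e-06) it was lower in all 3 DKK1-SE-KO samples than in any WT sample. The cells carried the transcripts of an epithelial line with a mesenchymal component. The 4 keratins *KRT7*, *KRT8*, *KRT18* and *KRT19* summed to 1841, 1883 and 1919 TPM in WT and to 3144, 3086 and 2657 TPM in DKK1-SE-KO, with *KRT8* the most abundant and 3 of the 4 called higher. *VIM*, which encodes the mesenchymal filament vimentin, was at 3746, 4210 and 4522 TPM in WT and at 2819, 2534 and 2700 TPM in DKK1-SE-KO and was called lower. Markers of other cell types were at or near 0. The 3 immune markers summed to at most 1.6 TPM in any sample, nearly all of it *CD14* (0.28 to 0.62 TPM in WT, 1.07 to 1.54 TPM in DKK1-SE-KO, called higher). The 3 endothelial markers summed to at most 0.22 TPM, the 3 fibroblast markers to at most 1.22 TPM, the 3 acinar markers to at most 0.2 TPM with *CELA3A* at 0 throughout, and the 2 endocrine markers to at most 0.33 TPM with *INS* at 0 throughout. The keratins and *VIM* thus differed between the genotypes, a change within cells and a change in the mix of cells cannot be told apart in bulk RNA, and their part in the values that follow was not tested.

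BET proteins bind acetylated histone tails through paired bromodomains and recruit P-TEFb, the kinase CDK9 with its partner cyclin T1, to promoters and enhancers. P-TEFb phosphorylates polymerase II and the pausing factors and so starts productive elongation, and it is kept inactive in a particle of the small RNA 7SK, in which HEXIM1 is the inhibitory protein. MED1 is the Mediator subunit that meets nuclear receptors, p300 (*EP300*) and CBP (*CREBBP*) acetylate histones at enhancers, and MYC, itself a classic gene under super-enhancer control in cancers, drives growth and ribosome synthesis.

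By edgeR's quasi-likelihood test, with Benjamini-Hochberg adjusted p under 0.05 over all genes tested as the call, 3 of the 9 genes were higher in DKK1-SE-KO, *BRD2*, *CDK9* and *CREBBP*, by 1.32 to 1.38 fold, and 0 were lower. The other 6 did not pass. Of all genes tested 39.3% were called, 19.8% higher and 19.5% lower, so the share of the 9 genes that was called (33.3%) was near that of genes in general and is not a result about these genes. The 0 called lower became 2 in edgeR without DKK1-SE-KO replicate 3 and were 0 in DESeq2 and in limma, and at an unadjusted edgeR p under 0.05 there were also 0. Without WT replicate 1, 1 of the 9 was called, against 28.2% of all genes tested in that fit, and without DKK1-SE-KO replicate 3 there were 5, against 48.4%. On TPM in place of counts, limma called none of the 9 in either direction, against 26.3% of all genes it tested, with the fold changes of *BRD2*, *CDK9* and *CREBBP* still above 0. At the study's thresholds, an unadjusted p under 0.05 and a fold change of at least 1.2, the same 3 genes passed when the limit was read on the linear scale, against 47.6% of all genes tested, and 0 of the 9 passed when it was read as log2, against 8.66%. The TPM values of the groups did not overlap for 3 of the 9 genes, against 44.2% of all genes tested, and the CPM (counts per 1000000 of the library total after TMM normalisation) did not overlap for 4, against 51.9%.

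**Figure D1:**
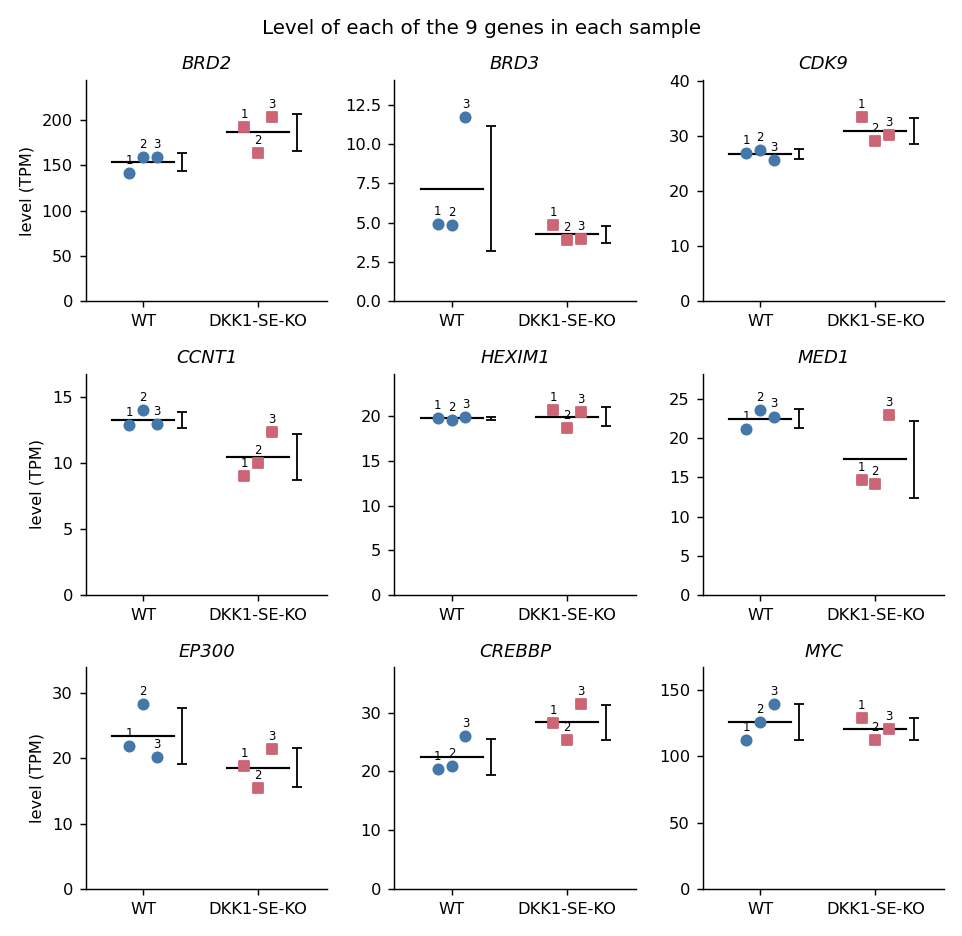
TPM of each of the 9 genes in each sample, on axes that start at 0, with WT as circles and DKK1-SE-KO as squares numbered by replicate, the group mean as a line and its SD as a bar (n = 3). All 3 squares stand above the circles for BRD2 and CDK9 and below them for CCNT1, and the single high WT point of BRD3, at 11.7 TPM, stands far from the other 5.

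The levels covered a wide range. In WT the order by mean TPM was *BRD2* (153.6 ± 10.3, SD, n = 3), *MYC* (126 ± 13.3), *CDK9* (26.8 ± 0.95), *EP300* (23.4 ± 4.3), *MED1* (22.5 ± 1.2), *CREBBP* (22.4 ± 3.1), *HEXIM1* (19.8 ± 0.14), *CCNT1* (13.2 ± 0.62) and *BRD3* (7.16 ± 3.97). The WT samples of *CDK9*, *EP300*, *MED1* and *CREBBP* overlapped each with the next in that order, so neighbours among these 4 are not separated beyond their spread. In DKK1-SE-KO the same scale gave *BRD2* (187 ± 20.6), *MYC* (121 ± 8.4), *CDK9* (31.0 ± 2.3), *CREBBP* (28.3 ± 3.0), *HEXIM1* (19.9 ± 1.1), *EP300* (18.5 ± 3.0), *MED1* (17.3 ± 4.9), *CCNT1* (10.4 ± 1.7) and *BRD3* (4.25 ± 0.53). There *CDK9* overlapped *CREBBP*, and *HEXIM1*, *EP300* and *MED1* overlapped each with the next. The first 3 places and the last 2 were held by the same genes in both groups, and *CREBBP* stood above *EP300* in DKK1-SE-KO and below it in WT, with samples that overlapped in WT and did not in DKK1-SE-KO.

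*BRD2* (ENSG00000204256, chr6:32968594-32981505 in hg38) encodes the BET protein with the most transcript among the 9 genes. Its TPM was 142, 159 and 159.7 in the WT samples and 192, 164 and 204 in the DKK1-SE-KO samples. The groups did not overlap, although DKK1-SE-KO replicate 2 was within 5 TPM of the highest WT sample. The expected counts behind these values were 5436 to 6918 in WT and 7729 to 8136 in DKK1-SE-KO. The log2 fold change was 0.46 ± 0.10 (SE, 95% confidence interval 0.24 to 0.68, edgeR adjusted p = 0.0045), and all 3 DKK1-SE-KO samples were above all 3 WT samples. It was the one of the 3 called genes that was still called whichever library was left out, although its adjusted p reached 0.04995 without WT replicate 1. On TPM, limma gave 0.28 with an adjusted p of 0.10, and over all 16 alternatives the adjusted p ran from 0.00042 to 0.19.

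*BRD2* also has more than 1 annotated start, with 4 windows in the RefSeq promoter table (build GRCh38.p14), each running from 250 bases before a start to 50 after it. The windows were searched on both strands for the AP-1 site TGANTCA, the cyclic AMP element TGACGTCA, the E-box CACGTG, the TATA box TATAAA and the GC box GGGCGG, which among all 35116 windows of that length were held by 7.71%, 1.85%, 7.26%, 11.5% and 45.0%. The table matched 8 of the 9 genes with 13 windows. Of these, 1 held the AP-1 letters, 1 the E-box, 1 the TATA box, 9 the GC box and 0 the cyclic AMP element, and a match is a description of these letters and not of a bound site. The AP-1 letters lay in a *BRD2* window, 189 bases before a start that is inside the gene's span (chr6:32970730-32970758, plus strand, motif in capitals), and are shown because no other window of the 8 genes had them.
BRD2: tgggctctggtTGATTCAcagagtctgca

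*BRD3* (ENSG00000169925, chr9:134030305-134068535), the close paralog of *BRD2*, is the gene whose TPM and counts differed most. Its TPM was 4.90, 4.83 and 11.7 in WT and 4.86, 3.91 and 3.98 in DKK1-SE-KO. WT replicate 3 stood far above the other 5 samples, and the groups overlapped. Its expected counts were 357, 255 and 324 in WT and 285, 288 and 302 in DKK1-SE-KO, and in counts WT replicate 3 lay between the other WT samples. The ratio of expected count to TPM, which follows the transcript length that the authors' estimate assigned to the gene, was 0.42 of the gene's usual value in WT replicate 3 and 0.90 to 1.199 in the other samples of the gene. A deviation of that size was larger than that of 97.5% of 14918 genes. On counts the log2 fold change was 0.03 ± 0.13 (SE, 95% confidence interval -0.26 to 0.32, edgeR adjusted p = 0.88). Its sign changed to -0.04 with library size alone and to -0.54 in limma on log2(TPM + 1), a fit that also differs in method and filter. When 1 library was left out the value ran from -0.04 to 0.10. *BRD3* overlaps *BRD3OS*, a gene on the opposite strand, along 4362 bases. *BRD3OS* had 234 to 317 counts in WT and 393 to 483 in DKK1-SE-KO and was called higher by 0.83 ± 0.14 (log2, SE, edgeR adjusted p = 0.0011). The library kit marks strand, but whether the counting used strand is not given in the sources used here, so reads of this pair may have been shared and the value of *BRD3* is uncertain. Of the other genes overlapping the 9, the largest had 13 counts in any sample.

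Of the 2 subunits of the kinase complex P-TEFb, *CDK9* was called and *CCNT1* was not. That is no test of a difference between them, and the ratio of their counts, given below, overlapped between the groups. *CDK9* (ENSG00000136807, chr9:127785679-127790792), the kinase, was at 27.03, 27.6 and 25.7 TPM in WT and at 33.6, 29.1 and 30.2 TPM in DKK1-SE-KO, from 540 to 745 counts in WT and 644 to 835 in DKK1-SE-KO. The groups did not overlap, with DKK1-SE-KO replicate 1 the highest. For *CDK9* the log2 fold change was 0.40 ± 0.14 (SE, 95% confidence interval 0.10 to 0.69, edgeR adjusted p = 0.038), higher in all 3 DKK1-SE-KO samples. This call was lost in 5 of the 6 fits that left out a library, with an adjusted p of 0.13, 0.13 and 0.10 without WT replicates 1, 2 and 3, 0.12 without DKK1-SE-KO replicate 1 and 0.086 without DKK1-SE-KO replicate 2, and over all 16 alternatives the adjusted p ran from 0.0040 to 0.23. *CCNT1* (ENSG00000129315, chr12:48688458-48716998), the cyclin, was at 12.9, 13.96 and 12.9 TPM in WT and at 8.98, 9.96 and 12.3 TPM in DKK1-SE-KO. All DKK1-SE-KO samples were below all WT samples in TPM, but in CPM they overlapped, since DKK1-SE-KO replicate 3 (63.0) lay within the WT samples (55.8 to 63.4). The log2 fold change was -0.20 ± 0.14 (SE, 95% confidence interval -0.50 to 0.11, edgeR adjusted p = 0.28). Without DKK1-SE-KO replicate 3 it was -0.38 with an adjusted p of 0.011, and with a GC-content offset it was 0.07, of the other sign, with adjusted p between 0.011 and 0.61 over 16 alternatives.

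*HEXIM1* (ENSG00000186834, chr17:45148475-45152099), the inhibitor of P-TEFb, was the steadiest of the 9 genes in WT. Its TPM was 19.8, 19.6 and 19.9 in WT and 20.7, 18.7 and 20.4 in DKK1-SE-KO, from 846 to 1168 counts. The WT samples lay within the range of the DKK1-SE-KO samples. In CPM the order was different, with 50.4 to 51.6 in WT and 53.8 to 62.0 in DKK1-SE-KO, without overlap. Its log2 fold change was 0.16 ± 0.11 (SE, 95% confidence interval -0.07 to 0.40, edgeR adjusted p = 0.24) and was not called in any of the 16 alternatives, where it ran from 0.01 to 0.18. The gene has 1 annotated transcript, and its ratio of count to TPM varied by less than 1% of its usual value between samples.

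A GC box was found in a promoter window of each of *CDK9*, *CCNT1* and *HEXIM1*, and windows of *CCNT1* and *HEXIM1* also hold the only E-box and the only TATA box among the 13 windows. A stretch of each is shown to set these letters side by side, each 5′ to 3′ on the strand of its gene with the motif in capitals. The *CDK9* stretch (chr9:127785973-127786000, plus strand) has 2 GC boxes, the first 50 bases before a start inside the gene's span, the *CCNT1* stretch (chr12:48716925-48716952, minus strand) the E-box, 234 bases before a start that is also inside the gene's span, and the *HEXIM1* stretch (chr17:45148435-45148462, plus strand) the TATA box, 29 bases before the start.
CDK9: ggcctggcggtGGGCGGcGGGCGGaaga
CCNT1: cgcccaacggtCACGTGacgcgcctgcg
HEXIM1: aaaagcttctaTATAAAaggggcgcaga

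*MED1* (ENSG00000125686, chr17:39404285-39451272), the receptor-binding subunit of Mediator, was at 21.1, 23.5 and 22.8 TPM in WT and at 14.7, 14.2 and 23.0 TPM in DKK1-SE-KO. The 3 DKK1-SE-KO samples were split, since replicates 1 and 2 lay below every WT sample and replicate 3 among them. Expected counts were 2237 to 2745 in WT and 1591, 1825 and 2321 in DKK1-SE-KO. For *MED1* the log2 fold change was -0.27 ± 0.13 (SE, 95% confidence interval -0.56 to 0.02, edgeR adjusted p = 0.12). Without DKK1-SE-KO replicate 3 it was -0.46 with an adjusted p of 0.0023, and with the GC-content offset it was -0.14 with an edgeR adjusted p of 0.27. Over 16 alternatives the adjusted p ran from 0.0023 to 0.36.

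*CREBBP* (ENSG00000005339, chr16:3725054-3880713), which encodes the acetyltransferase CBP, was at 20.4, 20.9 and 25.98 TPM in WT and at 28.3, 25.4 and 31.4 TPM in DKK1-SE-KO. WT replicate 3 and DKK1-SE-KO replicate 2 overlapped on this scale. In CPM the groups were apart, at 125, 135 and 146 in WT and 199.1, 162 and 199.1 in DKK1-SE-KO. The log2 fold change was 0.47 ± 0.12 (SE, 95% confidence interval 0.21 to 0.72, edgeR adjusted p = 0.0089), higher in all 3 DKK1-SE-KO samples in CPM. The call was lost without WT replicate 1 (0.38, adjusted p = 0.075) and with a GC-content offset (0.27, adjusted p = 0.073), and over 16 alternatives the adjusted p ran from 0.0024 to 0.20. The *CREBBP* windows also held GC boxes, and a stretch with 2 that overlap, the first 121 bases before a start (chr16:3880818-3880845, minus strand), is shown as an example. The GC box did not set the called genes apart, since the 6 genes that held it were *BRD2*, *CDK9* and *CREBBP*, which were called, and *BRD3*, *CCNT1* and *HEXIM1*, which were not.
CREBBP: gcaggtggaggGGGCGGGGCGGgggccg

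*EP300* (ENSG00000100393, chr22:41092592-41180077), which encodes p300, the paralog of CBP, was at 21.9, 28.2 and 20.1 TPM in WT and at 18.7, 15.5 and 21.4 TPM in DKK1-SE-KO. The groups overlapped, with WT replicate 2 the highest and DKK1-SE-KO replicate 2 the lowest. Expected counts were 2486, 2050 and 2345 in WT and 2078, 2095 and 2321 in DKK1-SE-KO. WT replicate 2 was lowest in counts and highest in TPM, and its ratio of count to TPM was 0.74 of the gene's usual value. The log2 fold change on counts was 0.04 ± 0.11 (SE, 95% confidence interval -0.21 to 0.28, edgeR adjusted p = 0.82), with sign changes to -0.03 under library size alone and with the GC-content offset and to -0.32 on log2(TPM + 1).

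*MYC* (ENSG00000136997) was the second most abundant of the 9 genes. Its TPM was 112.4, 126 and 139 in WT and 129, 112.3 and 121 in DKK1-SE-KO. The groups overlapped almost completely. Expected counts were 2968 to 3828 in WT and 3161 to 3646 in DKK1-SE-KO, and the log2 fold change was 0.08 ± 0.11 (SE, 95% confidence interval -0.17 to 0.34, edgeR adjusted p = 0.60). Its sign changed on TPM, where it was -0.06, and without DKK1-SE-KO replicate 1, where it was -0.03, and no alternative called it.

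**Figure D2:**
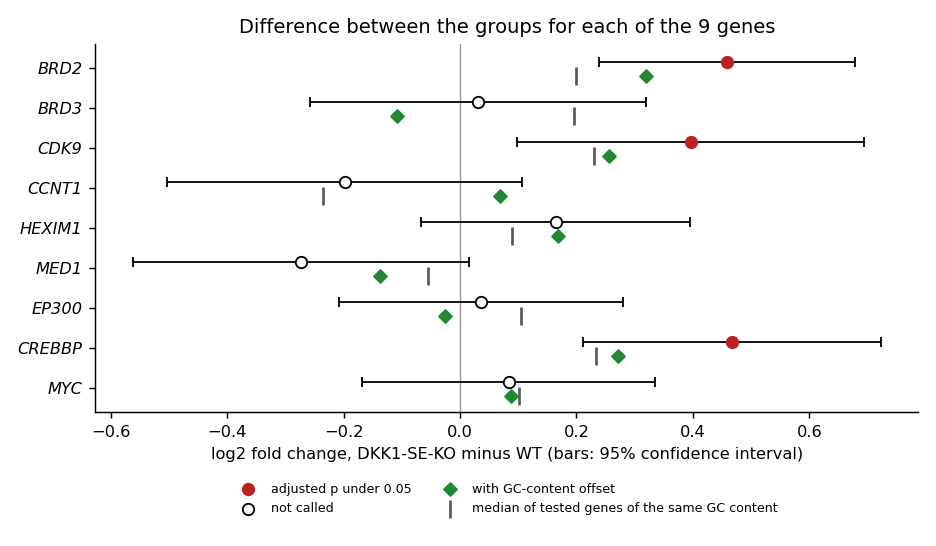
Log2 fold change (DKK1-SE-KO minus WT) of each of the 9 genes from edgeR, as circles with 95% confidence intervals (n = 3 in each group), filled where called, with the value after a GC-content offset as diamonds and the median of all tested genes within 1 percentage point of the same GC content as ticks. BRD2, CDK9 and CREBBP lie above 0, and their diamonds stand at 0.32, 0.26 and 0.27.

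The 3 called genes were also the 3 with the highest GC content among the 9. The gene models of *CREBBP*, *CDK9* and *BRD2* had 55.8%, 55.1% and 52.6% G and C, and the 2 with the lowest, *MED1* (44.8%) and *CCNT1* (40.7%), were the 2 whose log2 fold change was below 0. Over all genes tested the libraries differed in how counts followed GC content. Across genes, which are not independent replicates, the rank correlation of GC content with a library's deviation from the gene's mean was -0.42, -0.40 and -0.21 in the WT libraries and 0.59, 0.37 and -0.14 in the DKK1-SE-KO libraries. The same correlation with gene length was 0.04, 0.15 and 0.14 in WT and -0.14, -0.27 and 0.15 in DKK1-SE-KO. Its part in the values of the 9 genes was not tested. Genes within 1 percentage point of the GC content of *CREBBP* had a median log2 fold change of 0.23 (n = 932), those near *CDK9* 0.23 (n = 898), those near *BRD2* 0.20 (n = 999), those near *MED1* -0.05 (n = 1126) and those near *CCNT1* -0.23 (n = 1302). *BRD3*, with 52.3%, had 0.03 against a median of 0.20 (n = 1024), and with the GC-content offset it was -0.11. With an offset for GC content in every library, *BRD2* was 0.32 ± 0.08 (SE, edgeR adjusted p = 0.0071), *CDK9* 0.26 ± 0.09 (0.037) and *CREBBP* 0.27 ± 0.11 (0.073), and 2 of the 9 genes were called, against 42.0% of all genes tested. That offset also takes out any true change that follows GC content, so the value with it and the value without it are given side by side.

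**Figure D3:**
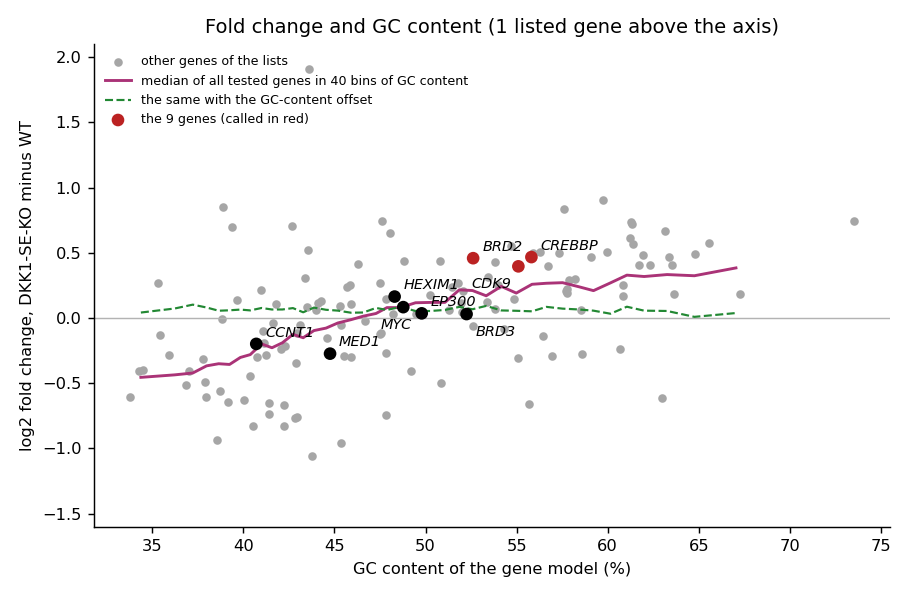
Log2 fold change (DKK1-SE-KO minus WT) against the GC content of the gene model in percent, for the 9 genes (black, or red where called) and the other tested genes of the 8 lists (grey), with the median of all tested genes in 40 bins of GC content without (solid) and with (dashed) the GC-content offset. The solid line runs from below 0 at low GC content to above 0 at high GC content, the dashed line is nearly level, and the 3 called genes BRD2, CDK9 and CREBBP lie above the solid line, as do HEXIM1 and, by less, CCNT1, which were not called.

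Ratios of counts within a sample compare partner genes without any scaling of the libraries, though not without a part for GC content. These 6 pairs were chosen after the values were seen. For each, a two-sided exact permutation test was made over the 6 samples, in which 3 against 3 cannot give a p below 0.1. The groups did not overlap for 3 of the 6 pairs, and since the CPM of 51.9% of single genes did not overlap either, nothing particular is read from that count. The ratio of *CREBBP* to *EP300* counts was 1.13, 1.10 and 1.19 in WT and 1.56, 1.52 and 1.54 in DKK1-SE-KO. It was higher in each DKK1-SE-KO sample than in any WT sample, by 0.43 on the log2 scale (exact p = 0.1, adjusted over 6 pairs 0.2), with an SD of 0.06 in WT and 0.02 in DKK1-SE-KO. The ratio of *BRD2* to *BRD3* counts was 19.4, 21.3 and 19.8 in WT and 27.2, 28.2 and 26.1 in DKK1-SE-KO. That difference was likewise 0.43 (exact p = 0.1, adjusted 0.2) without overlap, with the doubt about *BRD3* counts named above. The ratio of *HEXIM1* to *CDK9* counts, inhibitor over kinase, was 1.57, 1.57 and 1.56 in WT and 1.23, 1.31 and 1.503 in DKK1-SE-KO, lower in each DKK1-SE-KO sample (log2 difference -0.22, exact p = 0.1, adjusted 0.2) and nearest to WT in replicate 3. The ratio of *CDK9* to *CCNT1* counts was 0.54, 0.51 and 0.59 in WT and 1.15, 0.85 and 0.57 in DKK1-SE-KO. Here replicate 3 of DKK1-SE-KO lay inside the WT range and the groups overlapped (log2 difference 0.60, exact p = 0.2, adjusted 0.24). The pairs *CCNT1* over *CCNT2* and *MYC* over *MAX* also overlapped, with log2 differences of 0.21 and 0.02 (exact p = 0.2 and 0.6, adjusted 0.24 and 0.6).

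The genes around the 9 were read from 8 lists of known partners, which also hold the 9 genes themselves. Each list is given by its count of calls and its median beside those of all genes tested (39.3% called, 19.8% higher and 19.5% lower, median log2 fold change 0.03). When 1 library was left out these shares moved as well, from 28.2% called without WT replicate 1 and 25.9% without WT replicate 2 to 48.4% (23.7% higher and 24.7% lower) without DKK1-SE-KO replicate 3. Of the 4 BET family genes, 3 were tested, 2 were higher and 0 lower, with a median of 0.46, and without WT replicate 1 the count was 1. That median is the value of *BRD2* itself, and with the 9 genes set aside 1 gene of this list was tested and was higher. Of the 25 genes of the other lists named in what follows, 23 were tested by limma on log2(TPM + 1) and 9 of these were not called, *CCNT2*, *CDC73*, *MED13*, *MED27*, *NCOA3*, *HDAC3*, *HDAC5*, *HDAC9* and *POLR1B*, with the sign of each the same as on counts and adjusted p of 0.055 to 0.31. Of the 7 genes of P-TEFb and the 7SK particle, 2 were higher and 2 lower (28.6% each, against 19.8% and 19.5% of all genes tested), with a median of 0.16. This median is the value of *HEXIM1*, and of the 4 listed genes outside the 9, 1 was higher and 2 were lower. *MEPCE*, the enzyme that caps 7SK, was at 28.1 to 29.7 TPM in WT and 37.0 to 39.8 TPM in DKK1-SE-KO and was higher by 0.56 ± 0.12 (log2, SE, edgeR adjusted p = 0.0043). It was 0.32 with the GC-content offset and still called. *LARP7*, which holds the 3′ end of 7SK, was at 11.2 to 14.9 TPM in WT and 4.14 to 8.52 TPM in DKK1-SE-KO and was lower (-0.64 ± 0.22, edgeR adjusted p = 0.041). *CCNT2*, the other cyclin T, was lower (-0.41 ± 0.15, edgeR adjusted p = 0.045) with TPM that overlapped. The 2 lower calls were lost with the GC-content offset, which gave *CCNT2* the other sign (0.13), and the list then had 2 higher and 0 lower. *CCNT2* was not called without any of the 3 WT replicates in turn or without DKK1-SE-KO replicate 1 or 2 (-0.49 to -0.29), nor was *LARP7* without WT replicate 1 or 2 or DKK1-SE-KO replicate 1 or 2 (-0.73 to -0.44), and the list had 1 call without each of these 4 libraries, 2 without WT replicate 3, and 2 higher and 3 lower without DKK1-SE-KO replicate 3.

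Of 24 elongation and pausing factors, 9 were higher and 1 lower (37.5% and 4.17%, against 19.8% and 19.5% of all genes tested), with a median of 0.19, and the share called in either direction (41.7%) was near the 39.3% of all genes tested. The balance of the 2 directions depended on the libraries, with 8 higher and 4 lower without DKK1-SE-KO replicate 3. Under the GC-content offset 10 were higher and 0 lower, where 23.8% and 18.2% of all genes tested were. *NELFCD*, a subunit of the pausing complex NELF, was at 57.0 to 61.6 TPM in WT and 78.2 to 93.0 TPM in DKK1-SE-KO (0.74 ± 0.10, edgeR adjusted p = 0.00028). *ELL2*, a subunit of the super elongation complex, was at 21.8 to 22.3 TPM in WT and 27.5 to 45.8 TPM in DKK1-SE-KO (0.85 ± 0.12, edgeR adjusted p = 0.00043), and with its low GC content of 38.9% it was 1.26 with the GC-content offset. *CDC73*, a subunit of the PAF complex, was the one called lower (-0.41 ± 0.11, edgeR adjusted p = 0.015), and its sign changed to 0.10 with the GC-content offset. Without WT replicate 2 the list had 4 calls in place of 10 and *CDC73* was not called (-0.37), without WT replicate 1 it had 5 and without DKK1-SE-KO replicate 1 it had 6.

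Of the 33 genes of Mediator and its kinase module, 9 were higher and 2 lower (27.3% and 6.06%, against 19.8% and 19.5% of all genes tested), with a median of 0.03. *MED27*, in the tail, was at 25.5 to 29.4 TPM in WT and 31.8 to 36.7 TPM in DKK1-SE-KO (0.52 ± 0.11, edgeR adjusted p = 0.0045). *MED12L*, a paralog of the kinase module subunit MED12, had the largest fold of the list at a low level, from 0.09 to 0.28 TPM in WT to 0.66 to 1.05 TPM in DKK1-SE-KO and from 13.0 to 27 counts to 64 to 81 counts (1.91 ± 0.29, edgeR adjusted p = 0.00061). *MED23*, also in the tail, was at 6.25 to 6.82 TPM in WT and 3.03 to 5.35 TPM in DKK1-SE-KO (-0.65 ± 0.13, edgeR adjusted p = 0.0032), and *MED13*, the link to the kinase module, overlapped in TPM (-0.56 ± 0.19, edgeR adjusted p = 0.040) and was called without DKK1-SE-KO replicate 3 (-0.89) and in none of the other 5 fits that left out a library (-0.58 to -0.38). With the GC-content offset *MED23* was -0.36 and still called and *MED13* was -0.17 and not called. Without WT replicate 1 the list had 4 calls in place of 11, and without WT replicate 2 it had 5. Without DKK1-SE-KO replicate 3, 9 genes were higher and 6 lower, where 23.7% and 24.7% of all genes tested were. The GC-content offset gave 12 higher and 1 lower, where 23.8% and 18.2% of all genes tested were.

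Of the 17 tested genes of 18 acetyltransferases and coactivators, 6 were higher, *CREBBP* among them, and 1 lower (35.3% and 5.88%, against 19.8% and 19.5% of all genes tested), with a median of 0.29. *CITED2*, which binds p300 and CBP, was at 27.4 to 34.2 TPM in WT and 39.1 to 46.9 TPM in DKK1-SE-KO (0.65 ± 0.12, edgeR adjusted p = 0.0021). *NCOA3*, a nuclear receptor coactivator, was at 4.17 to 4.88 TPM in WT and 5.14 to 8.63 TPM in DKK1-SE-KO (0.70 ± 0.15, edgeR adjusted p = 0.0040). *KAT6A*, an acetyltransferase of the MYST family, was at 10.6 to 12.6 TPM in WT and 4.33 to 7.21 TPM in DKK1-SE-KO (-0.96 ± 0.14, edgeR adjusted p = 0.00043) and was also lower with the GC-content offset (-0.87). Without WT replicate 1 the list had 4 calls in place of 7, and without DKK1-SE-KO replicate 3 it had 8 higher and 2 lower.

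The enzymes with the opposite activity were read for comparison. Of the 10 class I and II histone deacetylases, 3 were higher and 2 lower, where 19.8% and 19.5% of all genes tested were, with a median of -0.06. Library size alone gave 2 higher and 4 lower, where 16.45% and 21.3% of all genes tested were. Limma on log2(TPM + 1) gave 0 higher and 2 lower, where 8.90% and 17.4% of all genes tested were. *HDAC3* was at 43.3 to 44.5 TPM in WT and 49.3 to 51.9 TPM in DKK1-SE-KO (0.44 ± 0.11, edgeR adjusted p = 0.0095), and *HDAC5* was higher by 0.61 ± 0.15 (edgeR adjusted p = 0.0090) with TPM that overlapped. *HDAC6*, which acts on tubulin in the cytoplasm, was at 24.1 to 24.4 TPM in WT and 14.7 to 16.7 TPM in DKK1-SE-KO (-0.66 ± 0.10, edgeR adjusted p = 0.00061), and *HDAC9* was at 15.04 to 16.7 TPM in WT and 8.33 to 12.5 TPM in DKK1-SE-KO (-0.45 ± 0.12, edgeR adjusted p = 0.015). With the GC-content offset *HDAC5* was 0.37 and *HDAC6* was -0.86, both still called, and *HDAC9* was no longer called (-0.10). *HDAC5* (0.55) and *HDAC9* (-0.44) were not called without WT replicate 1, nor *HDAC3* (0.40) without WT replicate 2, and the list had 2 calls without WT replicate 1, 3 without WT replicate 2 and 8 without DKK1-SE-KO replicate 3 (3 higher and 5 lower).

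*MYC* itself was not called. The share of its network called in either direction (46.2%) was near the 39.3% of all genes tested. Of 13 tested genes of the 14 in the MYC network, 4 were higher and 2 lower (30.8% and 15.4%, against 19.8% and 19.5% of all genes tested), with a median of 0.22. With the GC-content offset 2 were higher and 2 lower, where 23.8% and 18.2% of all genes tested were, with a list median of 0.09. Leaving out DKK1-SE-KO replicate 3 gave 5 higher and 3 lower, where 23.7% and 24.7% of all genes tested were. There were 2 higher and 2 lower without WT replicate 2, DKK1-SE-KO replicate 1 or DKK1-SE-KO replicate 2. Those fits called 25.9%, 33.5% and 29.9% of all genes tested, in that order. Without WT replicate 1 or 3 there were 3 higher and 2 lower, in fits that called 28.2% and 30.1% of all genes tested. The MAX-binding antagonist genes *MXD4*, at 4.68 to 6.24 TPM in WT and 9.66 to 10.3 TPM in DKK1-SE-KO (0.84 ± 0.14, edgeR adjusted p = 0.00077), and *MNT*, at 8.27 to 9.76 TPM in WT and 11.7 to 14.1 TPM in DKK1-SE-KO (0.74 ± 0.14, edgeR adjusted p = 0.0020), were higher. *MXI1*, another gene of the same kind, was at 7.92 to 10.7 TPM in WT and 3.44 to 5.50 TPM in DKK1-SE-KO (-1.06 ± 0.19, edgeR adjusted p = 0.0013). *MGA*, which encodes a large MAX partner, was at 10.9 to 13.2 TPM in WT and 5.08 to 10.0 TPM in DKK1-SE-KO (-0.66 ± 0.15, edgeR adjusted p = 0.0060). It was -0.42 with the GC-content offset and still called.

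Of 30 genes known as MYC targets, most of which serve ribosome and nucleotide synthesis, 11 were lower and 2 higher, 36.7% lower against 19.5% of all genes tested, with a median of -0.29. *MTHFD2*, a mitochondrial enzyme of folate metabolism, was at 271 to 304 TPM in WT and 138 to 184 TPM in DKK1-SE-KO (-0.83 ± 0.10, edgeR adjusted p = 0.00013). *POLR1B*, a subunit of RNA polymerase I, was at 32.5 to 46.6 TPM in WT and 19.2 to 29.0 TPM in DKK1-SE-KO (-0.76 ± 0.10, edgeR adjusted p = 0.00022). *BOP1*, a ribosome assembly factor, was higher (0.57 ± 0.13, edgeR adjusted p = 0.0064), as was *CCND2*, a D-type cyclin gene, at a level close to the limit of these libraries, with 4.26 to 6.33 counts in WT and 20.2 to 52.8 in DKK1-SE-KO (2.85 ± 0.49, edgeR adjusted p = 0.0011). *BOP1* was 0.25 with the GC-content offset and still called. Of the 30 genes, 9 lie on chromosome 2, and 6 of the 11 lower calls are among them, *MTHFD2* and *POLR1B* included. All 975 tested genes of chromosome 2 had a median of -0.40 and 45.3% of them were called lower, against 17.7% of the 14204 tested genes elsewhere. Of the 21 listed genes elsewhere, 5 were lower and 2 higher (23.8% and 9.52%), against 17.7% and 20.7% of all tested genes elsewhere. The median of these 21 was -0.27, against 0.06 for all tested genes elsewhere. This division was chosen after the values were seen. With the GC-content offset the whole list had 14 lower and 4 higher, where 18.2% and 23.8% of all genes tested were. Of these, 8 lower and 4 higher lay outside chromosome 2, where 2368 of the 14204 tested genes were lower and 3512 higher. On chromosome 2, 399 of the 975 tested genes were lower in that fit. Limma on log2(TPM + 1) gave 16 lower and 1 higher of 29 tested, in a fit that called 17.4% of all 13675 genes lower and 8.90% higher.

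Among the 7518 other genes with a mean of at least 10 TPM, the genes nearest in profile over the 6 samples were found by the root mean square difference of log2 CPM after subtraction of each gene's mean. Nearest to *HEXIM1* were *CNDP2* (0.018), *MAPKAP1* (0.020) and *KRI1* (0.024). Nearest to *BRD2* were *TSPYL1* (0.029), *ASXL1* (0.029) and *DIAPH1* (0.030), and nearest to *MYC* were *ITPR3* (0.020), *PIEZO1* (0.030) and *ABCA2* (0.030). How near the nearest profile is for other genes was not measured, and with 6 samples and so many genes compared nothing is read from these names.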

How the data were processed

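Stranded mRNA libraries of 3 WT and 3 DKK1-SE-KO samples of PANC-1 cells were sequenced, and groups and replicate numbers were taken from the sample labels. The authors deposited 1 table, made on the Majorbio Cloud Platform with hg38 per the labels, with expected counts per gene, not normalized and 32.3% of the nonzero ones not whole, and TPM, scaled by the authors within each library. The aligner, the counting program and its use of strand are not given in the sources used here. The authors' own fold changes and p-values in that table were not used.

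Expected counts were rounded and fitted with edgeR 4.0.16 (R 4.3.3), with filterByExpr by group at its default minimum count of 10, TMM factors of 0.94 to 1.04, the quasi-likelihood F test of 3 against 3 samples without covariates, and Benjamini-Hochberg adjustment over 15179 genes. A gene was called at an adjusted p under 0.05. GC content and positions came from GENCODE 44 by Ensembl identifier (62625 of 62703 found), and promoter windows from RefSeq. Ratios were tested with the exact permutation test of scipy 1.17.1 (Python 3.11.15), and figures were drawn with matplotlib 3.10.9.

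The alternatives were DESeq2 1.42.0, RLE factors, library size alone, no filter, a block for the replicate number, the omission of each library in turn, limma-trend 3.58.1 on log2(TPM + 1) or log2(TPM + 0.1) for genes with a mean of at least 1 TPM, the first of these without that filter, and a GC-content offset per library in 40 bins with and without the block. The MYC target list without chromosome 2 was added after the data were seen. The fits were tested on simulated counts.

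The members and lists were chosen with earlier results of these data known. Named were every member, the 2 called genes of each list with the smallest adjusted p in each direction, any called listed gene with a log2 fold change of 1.2 or more in either direction, and the 3 nearest profiles to *HEXIM1*, *BRD2* and *MYC*. *BRD3OS* and the genes of the ratios were named after their values were seen. Not every gene under this rule is reported here.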

Additional observations from a re-analysis of the deposited data

How the results depend on the processing

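Of the 9 genes, *BRD2* was called in 13 of 16 alternatives, *CREBBP* in 10 and *CDK9* in 5. The number called was 3 with DESeq2, RLE factors and no filter, 2 with library size alone and with the GC-content offset, 0 with limma on log2(TPM + 1), on log2(TPM + 0.1) and on log2(TPM + 1) without a filter, 1 to 5 when 1 library was left out (1 without WT replicate 1, 5 without DKK1-SE-KO replicate 3), and 0 at a log2 fold change of at least 1.2. Of all genes tested, 39.4%, 39.3% and 21.1% were called in the first 3 fits and 37.8% and 42.0% in the next 2. The limma fits called 26.3%, 26.4% and 7.46% in the order given, and the fits that left out 1 library called 25.9% to 48.4%. At the log2 limit 8.66% of all genes tested passed.

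The replicate numbers did not pair the samples, with correlations of the deviations of same-numbered samples of -0.12, -0.07 and -0.11. With the replicate block, 4981 genes were called in place of 5972, 2 of the 9 among them, and *CDK9* was 0.38 (adjusted p = 0.080). The block gave 2 calls among P-TEFb and 7SK genes and 6 among elongation factors. The replicate block with the GC-content offset gave 1 call among the 9, 1 in the BET family and 1 among P-TEFb and 7SK genes, with *BRD3* at -0.11, *CDK9* at 0.25, *CCNT1* at 0.068, *EP300* at -0.030, *CREBBP* at 0.26, *CCNT2* at 0.12 and *CDC73* at 0.10. That fit called 37.1% of all genes tested.

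The GC-content offset gave *BRD3* -0.11, *CCNT1* 0.070, *EP300* -0.027, *CREBBP* 0.27, *CCNT2* 0.13 and *CDC73* 0.10, and 2 calls among P-TEFb and 7SK genes. Library size alone gave *BRD3* -0.042, *EP300* -0.035 and *CDK9* 0.32 (adjusted p = 0.067). The cause of these changes was not tested beyond what each setting changes by its construction.

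On TPM, limma called 3590 genes (1217 higher, 2373 lower, against 3013 and 2959 on counts), 3612 with the pseudocount of 0.1 and 2320 without the filter, and the median log2 fold change of all genes was -0.11, -0.13 and -0.0046 in that order against 0.03 on counts. It gave *BRD2* 0.28, 0.28 and 0.28, *CDK9* 0.20, 0.21 and 0.20, *CREBBP* 0.33, 0.34 and 0.33, *BRD3* -0.54, -0.62 and -0.54, *EP300* -0.32, -0.33 and -0.32, and *MYC* -0.057, -0.057 and -0.057. Calls in the same order were 0, 0 and 0 in the BET family, 2, 2 and 1 among P-TEFb and 7SK genes, 4, 4 and 2 among elongation factors, 3, 3 and 1 in Mediator, 2, 2 and 1 among acetyltransferases and coactivators and 2, 2 and 1 among deacetylases. The MYC network had 2 calls without the filter.

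Leaving out 1 library gave log2 fold changes of 0.39 to 0.50 for *BRD2*, -0.039 to 0.10 for *BRD3*, 0.25 to 0.49 for *CDK9*, -0.38 to -0.10 for *CCNT1*, -0.46 to -0.18 for *MED1*, -0.046 to 0.12 for *EP300*, 0.38 to 0.56 for *CREBBP*, -0.025 to 0.15 for *MYC* and -1.53 to -1.42 for *DKK1*, which was called in all 16 alternatives. Calls then ranged from 1 to 2 in the BET family, 1 to 5 among P-TEFb and 7SK genes, 4 to 12 among elongation factors, 4 to 15 in Mediator, 4 to 10 among acetyltransferases and coactivators, 2 to 8 among deacetylases, 4 to 8 in the MYC network, 12 to 18 among MYC targets and 4095 to 7558 among all genes. In each of the 8 lists the lowest count came without WT replicate 1 or 2, alone or level with another library, and the highest came without DKK1-SE-KO replicate 3, alone or level with others, except for MYC targets, which had 18 calls without DKK1-SE-KO replicate 1. The MYC target list without its chromosome 2 genes had 7 calls. Of 25 named genes of the lists, 20 were called without WT replicate 1, 20 without WT replicate 2, 23 without WT replicate 3, 22 without each of DKK1-SE-KO replicates 1 and 2, 25 without DKK1-SE-KO replicate 3, 20 with the GC-content offset and 14 of 23 tested with limma on log2(TPM + 1).

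With 3 samples a group and 1 clone, these data resolve changes of about the size of the intervals given and say nothing of protein or of kinase activity. *BRD3* had 255 to 357 counts and shares its locus with an antisense gene. TPM of *BRD3* and *EP300* depend on transcript lengths that the authors' estimate set per library. RNA from cultured cells gives no separate account of cell number and RNA per cell.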
